A study of Mus musculus with 4 samples.

Results

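Oligodendrocytes are the glia that wrap axons of the central nervous system in myelin, a stack of compacted membrane rich in a few proteins and galactolipids. They arise from precursor cells that carry the platelet-derived growth factor receptor Pdgfra and the proteoglycan Cspg4, pass through a committed stage, and then turn on the myelin genes under Sox10, Olig factors and Myrf. Myelin mRNAs such as Mbp are carried out into the processes and translated there. The 30 genes described here mark this lineage and were taken by gene symbol from the 28193 genes of the deposited count table. They comprise 11 genes of myelin structural proteins, 8 genes of myelin enzymes and other mature functions, 6 lineage transcription factors and 5 genes of precursors and committed cells (Pdgfra, Cspg4, Gpr17, Bcas1 and Enpp6). All 30 had more than 5 counts in every library, with a lowest count of 263, and were among the 22338 genes tested.

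fosTRAP-seq sequences the mRNA on HA-tagged ribosomes of cells in which Fos was active while 4-hydroxytamoxifen was present. Every mouse, in both groups, was sleep deprived for 5 h from ZT 0 on day 0 with 4-hydroxytamoxifen at ZT 2. On day 7 only the SD mice went through another 5 h of sleep deprivation while the NSD mice did not, and tissue was collected at ZT 5. Each group held 10 male mice, and tissue of 5 mice was pooled for each of its 2 libraries, so each spread below is one between 2 pools. The labels give the source as dorsal hippocampus and the genotype as cFos-Cre:Ribotag, whereas the methods of the study describe CA1 of C57BL/6J mice aged 3 to 5 months that received AAV vectors for Fos-driven ERT2-Cre-ERT2 and for Cre-dependent HA-Rpl22. In the vectors the HA-Rpl22 gene sits behind an EF1a promoter, which is active in many cell types, and the Fos promoter drives the recombinase. The labels put 1 NSD and 1 SD library in batch 1 and the others in batch 2, and the library number below is this batch number.

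The libraries held 153511705 to 195910235 estimated counts and 26049 to 27455 detected genes. Levels are given as CPM, counts in proportion to the library total, scaled with TMM factors. A call needed a fold change above 1.2 together with a Benjamini-Hochberg adjusted p below 0.05 in the edgeR quasi-likelihood test. Without the batch in the fit 3.1% of all genes and 1.49% of protein-coding genes were called, and with the batch as a block 11.5% and 7.07%. The tagged cells are described as activated CA1 neurons, and markers of pyramidal neurons were abundant. Camk2a, the kinase subunit of excitatory synapses, stood at 444 ± 13.3 CPM per kilobase of exon (SD, n = 4 libraries), and Nrgn, a calmodulin-binding protein of dendrites, at 139 ± 17.0. Every oligodendrocyte lineage gene was nevertheless counted in every library, as were all 10 markers each of astrocytes, microglia and endothelial cells. No RNA of the homogenate before pulldown was analysed here, so it was not tested whether the oligodendrocyte transcripts came with tagged ribosomes or with RNA of other cells.

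Per kilobase of exon, Mbp, the basic protein that holds the cytoplasmic faces of compact myelin together, had the highest level of the 30 genes. It stood at 99.8 ± 9.07 CPM per kilobase (SD, n = 4 libraries). Cnp, the cyclic nucleotide phosphodiesterase of non-compact myelin, followed at 37.2 ± 3.29, and Mobp, a small basic protein of compact myelin, at 17.6 ± 1.76. The next levels were 15.4 ± 1.41 for the transcription factor Olig1 and 15.3 ± 0.679 for Cldn11, the claudin of myelin tight junctions, which differed by less than their spread. Car2, a carbonic anhydrase, had 14.3 ± 0.561, Mal, a membrane proteolipid, 13.2 ± 0.330, and Bcas1, a protein of cells that are beginning to myelinate, 11.5 ± 1.32 CPM per kilobase. Bcas1 was thus the precursor gene with the highest level, above Gpr17 at 4.39 ± 0.591, Pdgfra at 1.90 ± 0.124 and Cspg4 at 1.87 ± 0.171. Enpp6, a choline phosphodiesterase of newly forming oligodendrocytes, was the lowest of the 30 genes at 0.435 ± 0.0196. The order depended on the length used. Mbp was in place 1 and Enpp6 in place 30 under all 3 lengths tried, but Mobp passed Cnp to place 2 with the length of the canonical transcript, and Aspa moved from place 28 to place 21.

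**Figure D1:**
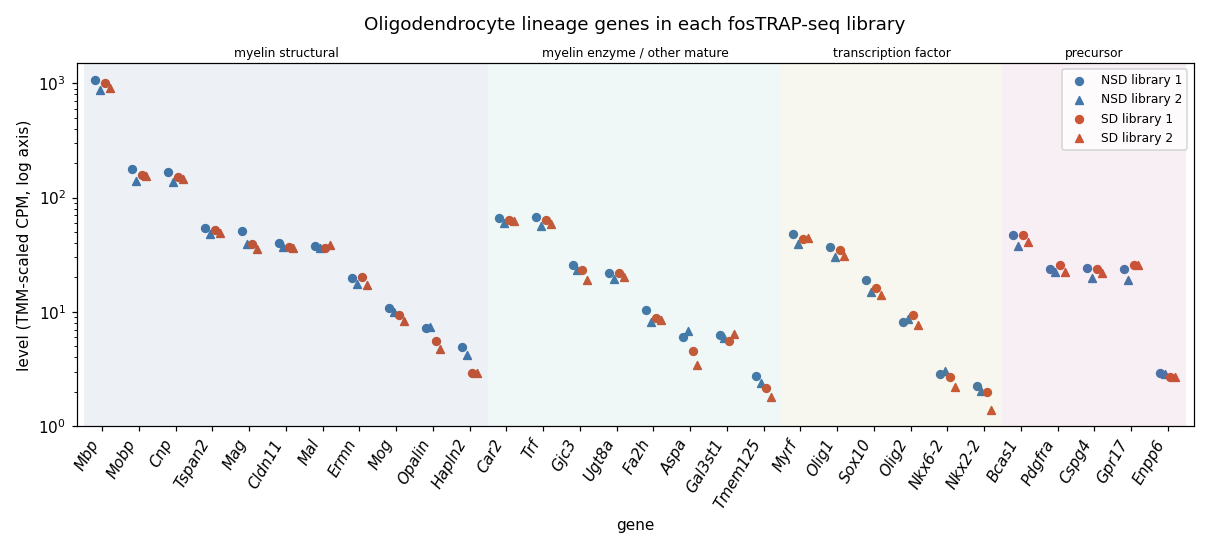
Level of each of the 30 genes in each library, as TMM-scaled CPM on a log axis, with genes grouped by role and ordered by their NSD mean within a role. Blue points are the NSD libraries, orange points the SD libraries, circles batch 1 and triangles batch 2. Mbp lies at 880.3 to 1073 CPM, and circles lie above triangles of the same colour for most genes.

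Most of the lineage genes were higher in batch 1 than in batch 2 in both groups. Mbp had 1073 and 880.3 CPM in NSD libraries 1 and 2, and 1016 and 919 CPM in SD libraries 1 and 2. The 2 NSD values thus enclosed both SD values. NSD library 1 was above NSD library 2 for 26 of the 30 genes, where this held for 51.1% of all genes tested and 46% of protein-coding genes. SD library 1 was above SD library 2 for 25 of the 30, against 53.8% of all genes. Both held for 21 of the 30 genes, against 33.2% of all genes. NSD library 1 was the highest of the 4 libraries for 20 of the 30, against 31.5%. The summed level of the 30 genes was 2093 and 1740 CPM in NSD and 1954 and 1808 CPM in SD, or 0.175% to 0.213% of a library, so the groups overlapped in the sum too. Markers of microglia were also higher in batch 1, for 9 of 10 genes in NSD and 10 of 10 in SD, with sums of 154 and 117 CPM in NSD and 161 and 117 CPM in SD. Interneuron markers were higher in library 1 for 8 of 10 genes in each group, and pyramidal neuron markers for 1 of 10 in NSD and 0 of 10 in SD. The counts in NSD and SD were 9 and 5 of 10 for astrocytes, 1 and 10 of 10 for endothelial cells, and 6 and 8 of 10 for mural cells and fibroblasts. What sets the batches apart beyond their number is not given in the sources used here.

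The comparison of SD with NSD asks which of these transcripts differed in the pulled-down RNA right after the second sleep deprivation. For the major myelin genes no difference was detected, and 3 less abundant genes of mature oligodendrocytes, Aspa, Hapln2 and Opalin, were at 0.61 to 0.70 of their NSD level. The precursor gene Gpr17 was at 1.203 times its NSD level. In edgeR these 4 genes passed with the batch in the fit and did not pass without it. In the edgeR test without the batch 0 of the 30 genes were called, where the shares over all genes were 0.77% for higher and 2.33% for lower, and those over protein-coding genes 0.952% and 0.54%. An unadjusted p under 0.05 was found for 4 of the 30 (1 higher, 3 lower), against 6.86% and 12.2% of all genes. With the batch as a block 3 were called lower and 1 higher, where 8.47% and 2.99% of all genes, and 3.29% and 3.77% of protein-coding genes, were called. DESeq2 without the batch called 8.79% of all genes and 5.7% of protein-coding genes. Of the 30 it called 3 lower and 0 higher, against 5.79% and 2.99% of all genes and 1.79% and 3.91% of protein-coding genes. In these pooled samples fewer cells of a type and less RNA per cell cannot be told apart.

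The direction of the list as a whole was close to 0. The log2 fold change (SD over NSD) was below 0 for 21 of the 30 genes and above 0 for 9, against 52.8% below 0 among all genes tested and 45.8% among protein-coding genes. The median was -0.03 over the 30 genes, -0.04 over the 19 mature genes, -0.10 over the 6 transcription factors and 0.06 over the 5 precursor genes, beside -0.02 over all genes tested and 0.02 over protein-coding genes. Both SD libraries were below both NSD libraries for 10 of the 30 genes, against 27.5% of all genes and 20% of protein-coding genes, and above them for 1 of the 30 (Gpr17), against 22% and 26.5%. Within batch 1 the SD library was the lower one for 25 of the 30 genes, with a median log2 ratio of -0.12. Within batch 2 it was lower for 14 of the 30, with a median of 0.02. The corresponding shares of all genes were 51.1% and 54.6%. Without NSD library 1 the median of the 30 genes was 0.08, and without NSD library 2 it was -0.15, so the sign of the list median turned on which NSD library was present.

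**Figure D2:**
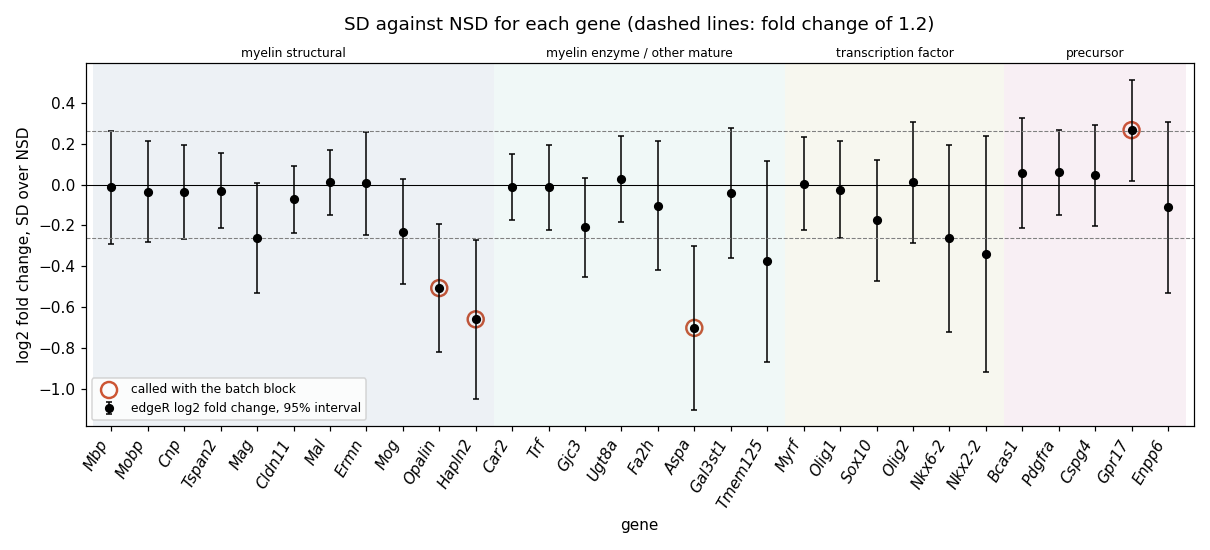
Log2 fold change of SD over NSD for each gene from the edgeR fit without the batch (points) with its 95% interval (bars), genes grouped by role as in the plot of levels. Orange rings mark the genes called when the batch was a block, Opalin, Hapln2 and Aspa below 0 and Gpr17 above it, and dashed lines a fold change of 1.2 in either direction.

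The clearest differences lay in Aspa, Hapln2 and Opalin, which have distinct roles. Aspa encodes aspartoacylase, which releases acetate from the neuronal metabolite N-acetylaspartate. It had 6.04 and 6.86 CPM in NSD and 4.52 and 3.41 CPM in SD, with both SD libraries below both NSD libraries. Its log2 fold change was -0.70 ± 0.18 (SE, 95% interval -1.104 to -0.30, edgeR adjusted p = 0.0706, with the block 0.00735). Within batches the log2 ratio was -0.42 in batch 1 and -1.01 in batch 2. Hapln2, a link protein of the hyaluronan matrix at nodes of Ranvier, had 4.94 and 4.21 CPM in NSD and 2.89 and 2.90 CPM in SD. Its SD libraries were nearly equal and both lower, and the log2 fold change was -0.66 ± 0.17 (SE, 95% interval -1.05 to -0.27, edgeR adjusted p = 0.0764, with the block 0.0114). Opalin, a transmembrane glycoprotein of central myelin, had 7.30 and 7.42 CPM in NSD and 5.58 and 4.78 CPM in SD. The NSD libraries lay close together and above both SD libraries, and the log2 fold change was -0.51 ± 0.14 (SE, 95% interval -0.82 to -0.19, edgeR adjusted p = 0.0869, with the block 0.0137). DESeq2 without the batch gave adjusted p-values of 0.00716, 0.0133 and 0.0238 for the 3 genes. When single libraries were left out, the log2 fold change ranged from -0.92 to -0.50 for Aspa, from -0.77 to -0.51 for Hapln2 and from -0.62 to -0.39 for Opalin. Without SD library 1 Aspa and Opalin were called also without the block (edgeR adjusted p = 0.00125 and 0.0338). Without SD library 2 the edgeR adjusted p was 0.237 for Aspa and 0.392 for Opalin, without NSD library 1 it was 0.102 and 0.194, and without NSD library 2 it was 0.167 and 0.164. Hapln2 was not called with any library left out.

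Markers of endothelial cells also had lower values in SD. All 10 had a log2 fold change below 0, with a median of -0.76, and their sum was 49.7 and 69.5 CPM in NSD and 40.7 and 26.4 CPM in SD. None of the 10 was called by edgeR without the batch (7 had an unadjusted p under 0.05), 6 were called lower with the block, and none was at 0 in any library. For Flt1, a VEGF receptor, the log2 fold change was -0.82 (edgeR adjusted p = 0.0611, with the block 0.00426), and Cldn5, the tight junction claudin of brain endothelium, -0.61 (0.146 and 0.0366). The part of the endothelial transcripts in the values of Aspa, Hapln2 and Opalin was not tested.

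The sequences upstream of these 3 genes are shown because the 3 genes were lower together in SD, and those upstream of Cnp and Mobp are shown for comparison, as abundant myelin genes with a fold change near 0. Each is the stretch outside annotated exons of the 250 bases before the start of the canonical transcript, in the sense direction, from the GRCm39 genome with GENCODE M39 starts. Capitals mark ACAAAG, a core letter string of SOX factor motifs, and CTGGCAC, the string of the Myrf motif, on either strand, so that CTTTGT and GTGCCAG are the same strings read on the other strand. The runs are from chr11:73215512-73215732 (minus strand) for Aspa, chr3:87934891-87935068 (minus) for Hapln2, chr19:41065554-41065802 (minus) for Opalin, chr11:100465480-100465729 (plus) for Cnp and chr9:119978493-119978683 (plus) for Mobp.
Aspa: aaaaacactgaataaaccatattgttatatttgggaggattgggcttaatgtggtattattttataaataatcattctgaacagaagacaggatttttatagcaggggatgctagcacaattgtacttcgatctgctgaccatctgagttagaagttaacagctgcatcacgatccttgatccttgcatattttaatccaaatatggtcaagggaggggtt
Hapln2: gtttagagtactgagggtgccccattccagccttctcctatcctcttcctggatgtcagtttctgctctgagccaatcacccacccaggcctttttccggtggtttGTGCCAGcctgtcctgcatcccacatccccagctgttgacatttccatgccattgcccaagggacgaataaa
Opalin: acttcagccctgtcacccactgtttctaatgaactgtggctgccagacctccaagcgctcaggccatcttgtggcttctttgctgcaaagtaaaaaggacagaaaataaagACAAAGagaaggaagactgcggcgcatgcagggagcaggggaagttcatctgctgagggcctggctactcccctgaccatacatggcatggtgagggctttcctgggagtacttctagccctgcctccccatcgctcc
Cnp: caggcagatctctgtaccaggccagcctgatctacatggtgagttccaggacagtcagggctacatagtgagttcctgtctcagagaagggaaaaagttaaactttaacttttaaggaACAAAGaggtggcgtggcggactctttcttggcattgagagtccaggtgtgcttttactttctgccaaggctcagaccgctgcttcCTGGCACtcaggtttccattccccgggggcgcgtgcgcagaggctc
Mobp: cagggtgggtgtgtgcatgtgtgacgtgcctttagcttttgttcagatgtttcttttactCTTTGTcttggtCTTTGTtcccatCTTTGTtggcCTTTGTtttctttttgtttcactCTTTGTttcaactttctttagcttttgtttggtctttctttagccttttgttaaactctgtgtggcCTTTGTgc

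The capital runs numbered 0 in Aspa, 1 in Hapln2, 1 in Opalin, 2 in Cnp and 6 in Mobp. Cnp and Mobp do not stand for the other myelin genes with a fold change near 0, since the stretches of Mal, Cldn11, Tspan2, Car2 and Ugt8a held 0 such runs, and no difference between lower and other genes is read from these counts. The run of Mobp is rich in T, and CTTTGT recurs in it. Across the full 250-base windows ACAAAG was present in 7 of the 30 genes (23.3%) and in 14.1% of the windows of 16943 protein-coding genes. The related string ACAATG was in 8 of 30 (26.7%) and 7.24%, and CTGGCAC in 3 of 30 (10%) and 4.26%. At least 1 of the 2 SOX strings was in 14 of 30 (46.7%) and 20.1% of all windows. These are matches of letters and no test was made of them.

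Among the other myelin structural genes no fold change passed the test. Mag, the adhesion molecule of the membrane next to the axon, had 50.9 and 39.3 CPM in NSD and 39.6 and 35.6 CPM in SD. NSD library 1 stood above the others, and NSD library 2 was just below SD library 1. Its log2 fold change was -0.26 (95% interval -0.53 to 0.01, edgeR adjusted p = 0.275), and with the block it was -0.25 with an adjusted p of 0.0237, short of the fold change needed for a call. Without NSD library 1 the value for Mag was -0.03 (edgeR adjusted p = 0.929), and without NSD library 2 it was -0.44 and called (0.0377). Mog, on the outer surface of the sheath, had 10.7 and 10.1 CPM in NSD and 9.44 and 8.28 CPM in SD, without overlap, and its log2 fold change was -0.23 (edgeR adjusted p = 0.320).

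The most abundant structural genes had intervals around 0. For Mbp the log2 fold change was -0.01, with a 95% interval of -0.29 to 0.26, which bounds the SD level at 0.818 to 1.199 of the NSD level. Mobp had 179 and 141 CPM in NSD and 157 and 156 CPM in SD, with both SD values between the NSD values, and a log2 fold change of -0.03 (95% interval -0.28 to 0.21). Cnp had 168 and 137 CPM in NSD and 151 and 147 CPM in SD in the same arrangement, with -0.04 (95% interval -0.27 to 0.19). Mal and Cldn11 were measured more tightly, at 0.01 (95% interval -0.15 to 0.17) and -0.07 (-0.24 to 0.09). Tspan2, a tetraspanin, and Ermn, a cytoskeletal protein of late oligodendrocytes, had log2 fold changes of -0.03 and 0.01.

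Of the genes of myelin enzymes and other mature functions, none besides Aspa passed the test with or without the block. Ugt8a, the enzyme that makes galactosylceramide, had 21.7 and 19.5 CPM in NSD and 22.02 and 20.04 CPM in SD, with library 1 the higher one in each group. Its log2 fold change was 0.03 (95% interval -0.18 to 0.24). Fa2h, which hydroxylates the fatty acids of these lipids, and Gal3st1, which makes sulfatide from them, had -0.10 (95% interval -0.42 to 0.21) and -0.04 (-0.36 to 0.28). Car2 had -0.01 (-0.17 to 0.15) and the iron carrier Trf -0.01 (-0.22 to 0.20). Gjc3, a connexin, had 25.8 and 23.1 CPM in NSD and 23.1 and 19.2 CPM in SD. Its SD libraries lay below both NSD libraries, NSD library 2 and SD library 1 by less than the rounding shown, and the log2 fold change was -0.21 (edgeR adjusted p = 0.342). Tmem125 had 2.76 and 2.37 CPM in NSD and 2.15 and 1.81 CPM in SD, also without overlap. Its log2 fold change of -0.38 had a wide interval of -0.87 to 0.12 and an edgeR adjusted p of 0.409. Gjc3, Tmem125, Mog, Aspa, Hapln2, Opalin and Cldn11 were the 7 of 19 mature genes with both SD libraries below both NSD libraries. The same order was found for 27.5% of all genes and 20% of protein-coding genes.

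The 6 transcription factors did not pass the test. Olig1, Olig2 and Myrf, the factor that turns on myelin genes, had log2 fold changes of -0.02 (95% interval -0.26 to 0.21), 0.01 (-0.28 to 0.31) and 0.00 (-0.22 to 0.23). Myrf had 48.3 and 38.9 CPM in NSD and 43.4 and 44.02 CPM in SD, with the SD values between the NSD values. Sox10, required through the whole lineage, had 19.04 and 15.0 CPM in NSD and 16.2 and 14.0 CPM in SD. The groups overlapped, and the log2 fold change was -0.17 (edgeR adjusted p = 0.544). The homeodomain factors were the rarest of the group. Nkx2-2 had 2.26 and 2.04 CPM in NSD and 2.01 and 1.39 CPM in SD, and Nkx6-2 had 2.85 and 3.06 CPM in NSD and 2.71 and 2.22 CPM in SD. In both genes the SD libraries were lower without overlap, with log2 fold changes of -0.34 (95% interval -0.92 to 0.24) and -0.26 (-0.72 to 0.19).

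**Figure D3:**
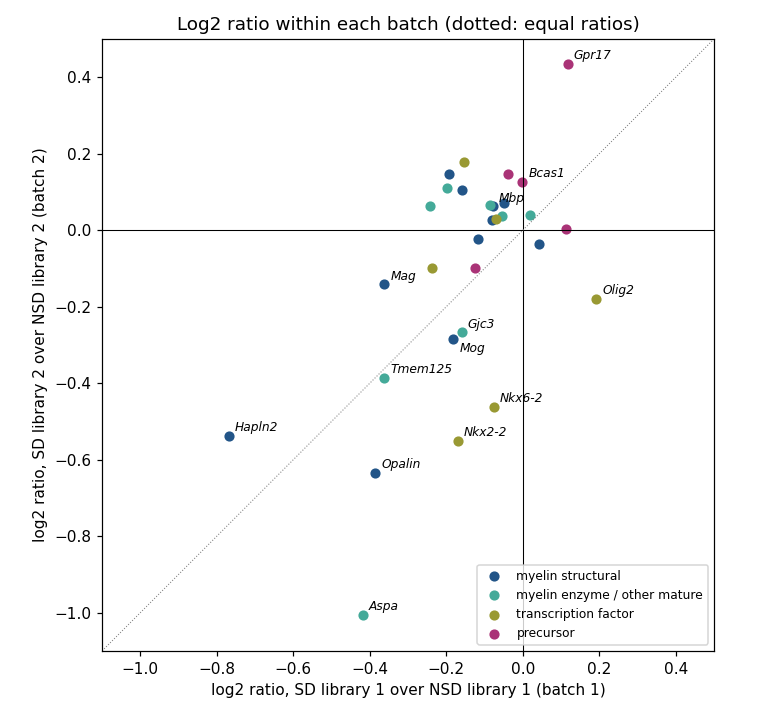
Log2 ratio of the SD to the NSD library in batch 1 (horizontal) and in batch 2 (vertical) for each of the 30 genes, coloured by role, with the dotted line marking equal ratios. Aspa, Hapln2 and Opalin lie low on both axes and Gpr17 lies above 0 on both, while many genes near the centre are below 0 in batch 1 and above 0 in batch 2.

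Of the 5 precursor genes 4 had a log2 fold change above 0 and 1, Enpp6, below 0, and with the block Gpr17 was the 1 gene of them called. Gpr17, a G protein-coupled receptor of committed precursors, had 23.9 and 19.1 CPM in NSD and 25.9 and 25.8 CPM in SD. It was the 1 gene of the 30 whose SD libraries were both above the NSD libraries, and the log2 fold change was 0.27 ± 0.11 (SE, 95% interval 0.02 to 0.51, edgeR adjusted p = 0.223). With the block the value was 0.28 and the adjusted p 0.0405, and DESeq2 gave 0.143. The log2 ratio was 0.12 in batch 1 and 0.44 in batch 2. Without NSD library 1 it was 0.47 and called (edgeR adjusted p = 0.0456), and without NSD library 2 it was 0.12. Pdgfra had 23.5 and 22.2 CPM in NSD and 25.5 and 22.3 CPM in SD, with SD library 2 between the NSD values, and a log2 fold change of 0.06 (95% interval -0.15 to 0.27). Cspg4 had 0.05 (-0.20 to 0.29), Bcas1 0.06 (-0.21 to 0.32) and Enpp6 -0.11 (-0.53 to 0.31), the last with both SD libraries below both NSD libraries. Pdgfra and Cspg4 are also made by cells of the vessel wall and its fibroblasts, and the 10 markers of those cells had sums of 81.8 and 75.4 CPM in NSD and 81.8 and 70.3 CPM in SD.

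The sum of the 5 precursor genes was 122 and 102 CPM in NSD and 125 and 114 CPM in SD, and that of the 19 mature genes 1854 and 1540 CPM in NSD and 1720 and 1594 CPM in SD. Each sum overlapped between the groups. The precursor sum was 6.59% of the mature sum in both NSD libraries, whereas it was 7.28% in SD library 1 and 7.13% in SD library 2. Since Mbp made up 57.1% to 59.1% of the mature sum, the share was also taken without it, and was 15.7% and 15.4% in NSD and 17.8% and 16.8% in SD. Without Gpr17 the precursor genes were 5.31% and 5.35% of the mature sum in NSD and 5.77% and 5.51% in SD. The groups did not overlap in any of these 3 shares. No test of these shares was made, because the genes were chosen with earlier results of these data known.

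**Figure D4:**
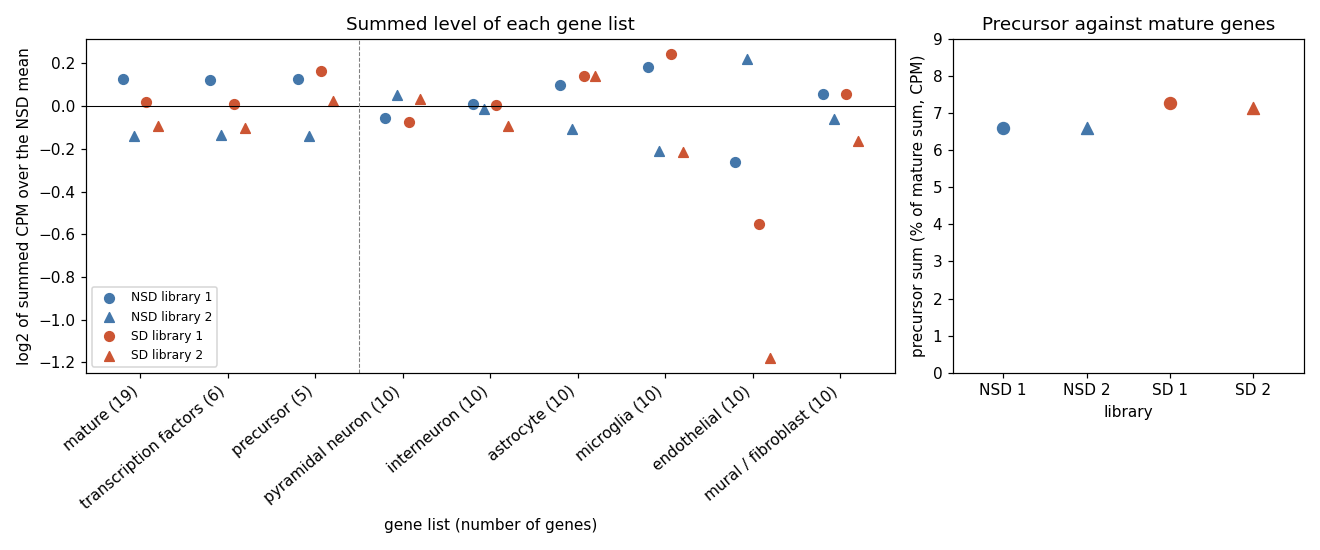
Left, log2 of the summed CPM of each gene list over the mean of the NSD libraries, for the 3 groups of lineage genes and, right of the dashed line, for 10 markers each of other cell types. Right, the precursor sum as a percent of the mature sum, 6.59% in both NSD libraries, 7.28% in SD library 1 and 7.13% in SD library 2.

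Further genes of the lineage were 42 of mature oligodendrocytes and 18 of precursors. Of the 42 mature genes 1 was called higher and 0 lower by edgeR, against 0.77% and 2.33% of all genes. The log2 fold change was above 0 for 15 and below 0 for 27, with a median of -0.04. Among all genes tested 52.8% were below 0, with a median of -0.02. Both SD libraries were above both NSD libraries for 7 of the 42 and below them for 7, against 22% and 27.5% of all genes. The corresponding shares of protein-coding genes were 26.5% and 20%. The sum of the 42 genes was 2315 and 2190 CPM in NSD and 2382 and 2401 CPM in SD, without overlap. The gene called was Sox8, a factor related to Sox10, with 28.4 and 28.4 CPM in NSD and 35.6 and 38.2 CPM in SD. The NSD libraries were equal after rounding and both SD libraries were higher, and the log2 fold change was 0.38 ± 0.07 (SE, edgeR adjusted p = 0.0400, with the block 0.00204). It stayed between 0.34 and 0.43 in all 10 alternatives and was called in 4 of them, with adjusted p-values from 0.000488 to 0.0900. Its call was lost without NSD library 1 (0.0627), NSD library 2 (0.0549) or SD library 2 (0.0900). Tppp, a tubulin-binding protein that neurons can also make, had 0.12 (edgeR adjusted p = 0.547). With the block 2 of the 42 were called higher, Sox8 among them, and 1 lower (Plxnb3, a plexin, named after its values were seen). The shares called higher and lower with the block were 2.99% and 8.47% of all genes, and 3.77% and 3.29% of protein-coding genes.

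Of the 18 further precursor genes 0 were called by edgeR without the batch. At an unadjusted p under 0.05, 2 were higher and 1 lower, against 6.86% and 12.2% of all genes. With the block 2 were called higher (Ptprz1 and Sulf2) and 1 lower (Pcdh15), all 3 named after their values were seen. The shares called higher and lower with the block were 2.99% and 8.47% of all genes, and 3.77% and 3.29% of protein-coding genes. The log2 fold change was above 0 for 15 of the 18 and below 0 for 3, with a median of 0.10. Among all genes tested 52.8% were below 0, with a median of -0.02, and among protein-coding genes 45.8%, with 0.02. Whether the RNA of these 18 genes came from precursors was not tested. The most abundant per kilobase, the matrix glycoprotein Tnr and the xylosyltransferase Xylt1, had 0.09 and 0.17 (edgeR adjusted p = 0.613 and 0.304). Among other cell types the median was 0.04 for astrocytes (Slc1a2 0.16 and Aldoc 0.08), -0.03 for microglia (C1qa -0.08 and Ctss 0.22), -0.17 for mural cells and fibroblasts (Rgs5 -0.26 and Vtn -0.15), -0.04 for interneurons (Gad2 -0.04) and -0.10 for pyramidal neurons (Camk2a -0.03 and Nrgn 0.12). None of these genes was called by edgeR without the batch. With the block 4 of 10 pyramidal neuron markers (Neurod6, Wfs1 and Fibcd1 among them) and 1 of 10 interneuron markers (Sst) were called lower. Of the astrocyte and microglia markers 0 were called lower, and 1 of 10 markers of mural cells and fibroblasts (Dcn) was called higher. These genes too were named after their values were seen. The shares over all genes were 8.47% for lower and 2.99% for higher, and those over protein-coding genes 3.29% and 3.77%.

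Some of the 30 genes share exon bases with a neighbour on the opposite strand, and whether strand was used in counting is not given in the sources used here, so their values are less certain. The neighbour had over 10% of the gene's own count for 6 of them. Cnp overlaps Dnajc7 by 670 bases, and Dnajc7 had 30.5% of the count of Cnp. Aspa overlaps Trpv3 by 108 bases (27.2%), Nkx2-2 overlaps Nkx2-2os by 350 bases (20.6%), Mog overlaps Zfp57 by 1474 bases (17.2%) and Gpr17 overlaps Lims2 by 320 bases (12.0%). Nkx6-2 overlaps Inpp5a by 246 bases, and Inpp5a had 1341% of its count. The log2 fold changes of these neighbours ran from -0.67 to 0.03 and none was called by edgeR. Trpv3 had -0.15 where Aspa had -0.70, and Lims2 had -0.19 where Gpr17 had 0.27. Hapln2 shares no exon bases with another gene, and Dntt, the neighbour of Opalin, had 0.396% of its count.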

How the data were processed

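Ribosome-bound RNA of 4 pools of 5 mice (2 NSD, 2 SD) was sequenced after ribosomal RNA depletion with a stranded kit. The authors aligned reads with STAR to mouse genome build mm39 (GRCm39), and they deposited per gene the estimated counts of Partek Flow with Ensembl release 110, not normalized; these need not be whole (22 of the 30 genes had a non-whole value) and were rounded. The submitters' processing notes name Partek and mm39. The members and gene lists were chosen with earlier results of these data known.

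The 22338 of 28193 genes above 5 counts in each library were fitted with edgeR 4.0.16 in R 4.3.3 (TMM scaling, quasi-likelihood, two-sided, condition only) and p-values adjusted by Benjamini-Hochberg over all of them. The text names all 30 genes and, of the other lists, each called gene and the 2 with the highest mean level per kilobase. Values of a few genes that this rule names were left out of the report. The labels give same-numbered libraries the same batch, which pairs them, and the deviations of same-numbered libraries correlated at 0.178 across genes. Alternatives were this batch as a block, DESeq2 1.42.0, its size factors, no minimum count, filterByExpr, protein-coding genes only and each library left out. Other transcript lengths, lists without their 5 most or least abundant genes, and no fold threshold were also tried. The canonical length, the fold threshold and the 5 least abundant genes were added after the data were seen. Within-batch log2 ratios used a prior count of 2. Lengths are unions of exons in GENCODE M39 of the same build. Fits were tested on simulated counts with changes larger than those of the 30 genes and no batch difference. Recovery of changes as small as those reported here was not tested. At this depth the 2 libraries per group, not counting error, limit precision. P-values measure the spread between these pools, with each gene's variance drawn towards that of other genes. In the edgeR fit without the block the prior degrees of freedom were 6.38. The block leaves fewer residual degrees of freedom per gene.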

Additional observations from a re-analysis of the deposited data

How the results depend on the processing

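All results rest on 2 pools per group. Of all genes, 172 were called higher and 520 lower, against 668 and 1891 with the replicate block, 669 and 1294 by DESeq2, 50 and 80 with no minimum count, 1 and 0 by filterByExpr (4410 genes at an unadjusted p under 0.05), and 51 and 39 with protein-coding genes only. The share of calls that were higher was 24.9% in the fit reported, 38.5% with no minimum count, 56.7% with protein-coding genes only, 61.4% without NSD replicate 1 and 13% without SD replicate 1. Leaving out a library gave 124 to 308 higher and 78 to 1955 lower, with the lone library of a group assumed to vary like the others. Of the 30 genes, 0 were called in edgeR without the block (4 at an unadjusted p under 0.05), 1 higher and 3 lower with the block, 0 and 3 by DESeq2, and 0 to 1 higher and 0 to 2 lower with a library left out. The cause of these shifts was not tested. Under the other scaling and filters no member was called.

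With the block, which pairs the libraries of a batch, all 30 genes had the same sign as without it. Calls among the 42 further mature genes numbered 1, 3 with the block, 2 by DESeq2, and 0 with no minimum count, filterByExpr or protein-coding genes only, and 0 to 2 with a library left out. Among the 18 further precursor genes they numbered 0, 3 with the block, 2 by DESeq2 and 0 to 2 with a library left out. The median log2 fold change of the mature members was -0.16 within batch 1, and ranged from -0.18 (without NSD replicate 2) to 0.06 (without NSD replicate 1). The corresponding ranges were -0.10 to 0.23 for precursor members, -0.21 to 0.02 for transcription factors, -0.12 to 0.072 for further mature genes and 0.0098 to 0.21 for further precursor genes.

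The sign turned under some alternative for 19 genes, whose log2 fold changes lay between -0.17 (Sox10) and 0.06 (Pdgfra). DESeq2, its size factors and no minimum count gave 0.0078, 0.0078 and 0.013 for Mbp, 0.011, 0.011 and 0.017 for Car2 and 0.0077, 0.0077 and 0.013 for Trf, and no minimum count gave 0.0027 for Olig1. Protein-coding genes only gave -0.010 for Mal, -0.016 for Ermn, -0.0083 for Olig2 and -0.018 for Myrf. With a library left out the log2 fold change ranged from -0.15 to 0.17 for Mbp, -0.20 to 0.18 for Mobp, -0.18 to 0.15 for Cnp, -0.014 to 0.065 for Mal, -0.13 to 0.016 for Cldn11, -0.13 to 0.14 for Ermn, -0.12 to 0.096 for Tspan2, -0.047 to 0.14 for Ugt8a, -0.28 to 0.12 for Fa2h, -0.13 to 0.057 for Gal3st1, -0.075 to 0.085 for Car2, -0.14 to 0.15 for Trf, -0.34 to 0.039 for Sox10, -0.15 to 0.15 for Olig1, -0.14 to 0.16 for Olig2, -0.14 to 0.20 for Myrf, -0.040 to 0.17 for Pdgfra, -0.096 to 0.23 for Cspg4 and -0.10 to 0.27 for Bcas1.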
